A study of Homo sapiens with 2 samples.

Results

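Translation initiation factors are the proteins that bring an mRNA, the initiator tRNA and the ribosomal subunits together at a start codon. The genes described here are the protein-coding genes of GENCODE release 44 whose symbol starts with EIF1 to EIF6 and has no hyphen. They were matched by Ensembl identifier in both count tables, and 56 of the 58735 genes in the tables met the rule. By symbol they fall into 15 EIF2 genes, 14 EIF3 genes, 16 EIF4 genes and 11 others (EIF1, EIF5 and EIF6 genes). The RNA came from MCF10a-Snail-ER, a line of human mammary epithelial cells with a stable fusion of Snail, which represses genes of the epithelial state, and the estrogen receptor. Cells had been given 100 nM tamoxifen for 1 day, used by the submitters to start an epithelial-to-mesenchymal transition. Polyadenylated RNA was read as native strands on a MinION with a direct RNA kit (Nanopore, 1 library) and as fragmented, copied RNA with a TruSeq stranded mRNA kit (Illumina, 1 library). Both libraries share the cell line, the construct and the treatment, and no untreated library was analysed here, so the comparison is between the libraries only. Whether the line is 1 clone, and how many cultures were used, is not given in the sources used here.

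In the cap-dependent pathway, eIF4E binds the cap of the mRNA, eIF4G holds the complex together and eIF4A unwinds the leader. The small ribosomal subunit carries eIF1, eIF1A, eIF3, eIF5 and the eIF2 complex with initiator tRNA and GTP, and scans to the start codon, where eIF5B helps the large subunit join. eIF2B recharges eIF2 with GTP, and kinases that phosphorylate the alpha subunit of eIF2 slow this step under stress. In epithelial cells most of these factors are broadly expressed housekeeping genes.

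Several members have near copies in the genome, and the clearest difference between the libraries concerned such a pair. Coding sequence of 4 pairs is therefore shown first, as the first run of 60 coding bases that lies in 1 exon of both genes and aligns without a gap. All come from the Ensembl canonical transcripts of GENCODE release 44 (hg38), written along the coding strand, with bases that differ between the 2 genes of a pair in capitals. The EIF3C stretch is chr16:28711687-28711746 (plus strand) and that of EIF3CL is chr16:28403559-28403618 (minus strand), both in exon 2.
EIF3C: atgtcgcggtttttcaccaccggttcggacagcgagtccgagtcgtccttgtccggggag
EIF3CL: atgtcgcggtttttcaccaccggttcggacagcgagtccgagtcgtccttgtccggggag
The EIF5A stretch is chr17:7309636-7309695 (plus strand, exon 2) and that of EIF5AL1 is chr10:79512650-79512709 (plus strand, exon 1).
EIF5A: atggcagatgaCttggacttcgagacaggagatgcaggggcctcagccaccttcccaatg
EIF5AL1: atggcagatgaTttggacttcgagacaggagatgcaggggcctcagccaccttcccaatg
The EIF2S3 stretch is chrX:24054969-24055028 (plus strand, exon 1) and that of EIF2S3B is chr12:10505903-10505962 (plus strand, exon 1).
EIF2S3: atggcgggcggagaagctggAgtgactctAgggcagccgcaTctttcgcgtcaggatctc
EIF2S3B: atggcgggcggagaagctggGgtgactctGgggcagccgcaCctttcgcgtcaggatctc
The EIF4A1 stretch is chr17:7574546-7574605 (plus strand, exon 3) and that of EIF4A2 is chr3:186784564-186784623 (plus strand, exon 3).
EIF4A1: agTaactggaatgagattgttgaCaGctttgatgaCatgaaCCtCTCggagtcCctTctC
EIF4A2: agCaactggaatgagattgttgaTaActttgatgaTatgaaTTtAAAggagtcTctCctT
The shown stretches differ at 0 bases for EIF3C and EIF3CL, 1 for EIF5A and EIF5AL1, 3 for EIF2S3 and EIF2S3B, and 12 for EIF4A1 and EIF4A2. Over the whole coding sequence, EIF3C and EIF3CL had 0 mismatches and 3 gap bases, a coding identity of 99.9%. The coding identity was 98.9% for EIF5A and EIF5AL1, 98.2% for EIF2S3 and EIF2S3B, and 76.9% for EIF4A1 and EIF4A2, although the EIF4A proteins are 89.9% identical.

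The Nanopore table held 403235 counts, that of Illumina held 191741714, so 1 Nanopore count stood for 2.48 CPM (counts scaled to a library of 1000000), and 3 counts, the smallest level taken as measurable, for 7.44 CPM. There are no replicates, so all intervals (95% Wilson) and tests cover counting error in these libraries only, and in bulk RNA fewer cells with a transcript and less of it per cell cannot be told apart. The basal epithelial markers KRT5 (680 and 277508 counts, Nanopore and Illumina) and KRT14 (322 and 117214) were abundant, while the immune markers PTPRC and CD3E and the endothelial markers VWF and CDH5 had no Nanopore count and at most 11 Illumina counts. PECAM1, another endothelial marker, had 973 Illumina counts (5.07 CPM) and no Nanopore count, and CDH1, the epithelial cadherin, had 3 Nanopore and 4634 Illumina counts. SNAI1 (286 and 164973 counts) and ESR1 (389 and 27469), whose sequences the construct carries, were present in both.

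Nanopore detected 52 of the 56 initiation factor genes and Illumina 54. EIF4E1B, a cap-binding relative of EIF4E, and EIF1AY, the Y-chromosome copy of EIF1AX, had no count in either library. EIF2S3B (1010 Illumina counts, 5.27 CPM) and EIF2AK3 (1990 Illumina counts, 10.4 CPM) had none by Nanopore. Together the members held 3378 Nanopore counts, 0.838% of that library (0.810 to 0.866%), and 2434906 Illumina counts, 1.27% (1.27 to 1.27%). With Illumina counts divided by the length of each gene's canonical transcript and scaled to 1000000 (TPM), they held 0.884%. The Illumina share thus lay above the Nanopore interval on both scales, though by less per length.

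The groups took unequal parts of these counts. Of all initiation factor counts, EIF3 genes made up 36.7% in the Nanopore library (35.1 to 38.3%) and 30.2% in the Illumina library (30.2 to 30.3%). Without EIF3C and EIF3CL, the EIF3 parts were 34.1% (32.5 to 35.7%) and 30.2% (30.1 to 30.2%). For the EIF4 genes the order was opposite, with 31.2% (29.6 to 32.8%) and 37.2% (37.1 to 37.2%) in the same order. EIF2 genes had 9.77% of the Nanopore counts (8.81 to 10.8%) against 12.6% of the Illumina counts (12.6 to 12.7%), and the other genes had 22.4% (21.0 to 23.8%) against 20.0% (19.9 to 20.0%). None of these 4 pairs of intervals overlapped. Per length, the Illumina parts were 31.9% for EIF3, 34.6% for EIF4, 9.01% for EIF2 and 24.5% for the others. The EIF3 part was thus lower and the EIF4 part higher than by Nanopore on both scales. For EIF2 the Illumina value per length lay inside the Nanopore interval, and for the others the order turned. EIF4A1 alone held 343 of the 1053 EIF4 counts by Nanopore and 317098 of 905062 by Illumina, where it was at 1458 TPM. The EIF4 part without this gene was not computed, so the order need not hold for the rest of the group.

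Counts of every gene averaging 5 CPM or more over the 2 libraries entered an exact binomial test, two-sided, with Benjamini-Hochberg adjustment over all genes that entered. A call needed an adjusted p below 0.05 together with a 2-fold or greater ratio. Ratios are log2 of Nanopore plus 1 over Illumina plus 1, in CPM, or with Illumina in TPM for the ratio per length. The pseudocount of 1 understates the ratio of rare genes. Of the members, 52 passed the filter, all except EIF1AY, EIF4E1B, EIF2S3B and EIF4E3 (2 Nanopore and 887 Illumina counts). On the count scale, 2 of the 52 (3.85%) were called higher by Nanopore, where 17.7% of all 12414 tested genes were, and 13 (25%) were called higher by Illumina, where 21.7% of all were. Per length, 10 (19.2%) were called higher by Nanopore, against 28.3% of 12350 genes, and 4 (7.69%) higher by Illumina, against 6.59%. The shares of members higher by Illumina were thus near the background on both scales, and those higher by Nanopore were below it.

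With library totals and canonical length, 4 members were called in the same direction on both scales: EIF3C and EIF3CL, higher by Nanopore, and EIF3K and EIF2B3, higher by Illumina. These 4 calls held under each pseudocount, filter, scaling and length tried in which the gene was tested. For 23 of the 52 tested members the sign of the ratio differed between the scales, in 21 of them from below 0 on counts to above 0 per length. With union exonic or mean transcript length in place of canonical length, the ratio per length changed sign for 23 members, so ratios per length are stated for the canonical transcript unless another is named.

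**Figure D1:**
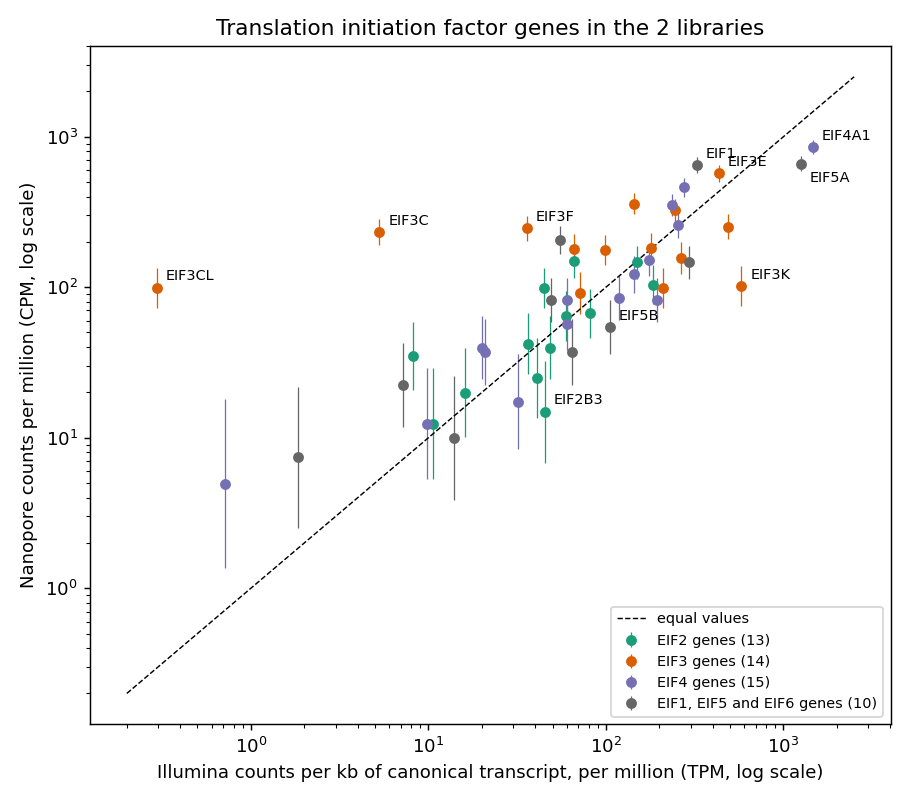
Level of the 52 members with a count in both libraries, Illumina TPM by canonical transcript length on the x axis and Nanopore CPM on the y axis (both log scales), with 95% Wilson intervals for Nanopore. EIF3C (233 CPM, 5.29 TPM) and EIF3CL (99.2 CPM, 0.294 TPM) lie far above the dashed line of equal values, and EIF3K (102 CPM, 579 TPM) below it.

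The EIF3 genes encode the largest initiation factor, a complex of subunits named a to m that holds the small ribosomal subunit in a state ready for the mRNA. EIF3C encodes a core subunit, and EIF3CL is its near-identical copy on the same chromosome. EIF3C (ENSG00000184110, chr16:28688558-28735727, plus strand, hg38) had 94 Nanopore counts, 233 CPM (191 to 285), and 1904 Illumina counts, 9.93 CPM (9.49 to 10.4). Its log2 ratio was 4.42 on counts (exact binomial test, Benjamini-Hochberg adjusted p = 7.21e-89) and 5.22 per length. EIF3CL (ENSG00000205609, chr16:28379579-28403841, minus strand) had 40 Nanopore counts, 99.2 CPM (72.9 to 135), and 106 Illumina counts, 0.553 CPM (0.457 to 0.669). Its log2 ratio was 6.01 on counts (exact binomial test, Benjamini-Hochberg adjusted p = 6.80e-70) and 6.27 per length. With pseudocounts of 0.1 and 5 CPM it was 7.25 and 4.23 on counts, and 7.98 and 4.30 per length, the last below the 4.53 of EIF3C. They were the 2 least abundant EIF3 genes by Illumina, while by Nanopore EIF3C ranked in the middle of the group.

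Summed over the pair, Nanopore gave 134 counts, 332 CPM (281 to 394), and Illumina 2010 counts, 10.5 CPM (10.03 to 10.95). The Nanopore sum lies between EIF3L (327 CPM) and EIF3H (360 CPM), other subunits of the complex. The lowest Illumina level among the other 12 EIF3 genes was 115 CPM, for EIF3J. EIF3CL took 29.9% of the pair's Nanopore counts (22.8 to 38.1%) and 5.27% of its Illumina counts (4.38 to 6.34%). How reads that map to several places were counted is not given in the sources used here. A read given to both copies would enter the sum more than once, which its interval does not cover. The pseudogene PLA2G10DP, which overlaps EIF3C on the opposite strand, also had 94 Nanopore counts, and 0 by Illumina. Of the 50-base words in the exons of EIF3C, 97.7% also occur elsewhere on the chromosomes of hg38, and of those of EIF3CL 98.1%. The body of EIF3CL, introns included, holds 93.0% of the EIF3C words. The part of shared sequence in the low Illumina counts was not tested.

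**Figure D2:**
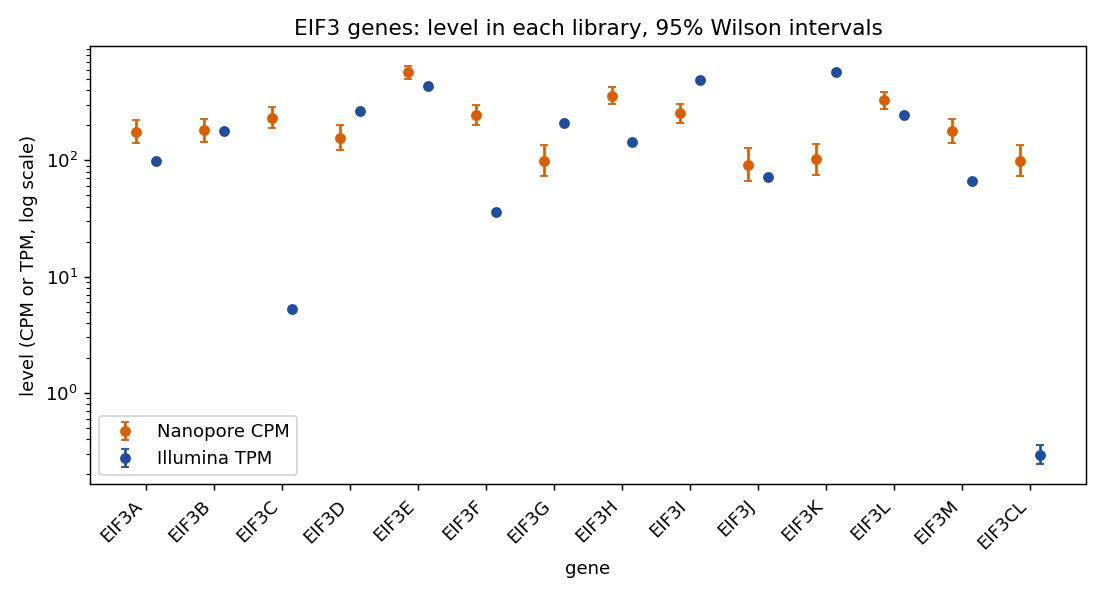
Level of the 13 EIF3 subunit genes and EIF3CL in each library, Nanopore CPM and Illumina TPM by canonical transcript length on a log axis, with 95% Wilson intervals. Nanopore levels run from 91.8 to 570 CPM, while Illumina levels of EIF3C and EIF3CL lie below the next lowest, EIF3F at 35.9 TPM.

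Across the 13 EIF3 subunit genes, Nanopore levels ran from 91.8 CPM (EIF3J) to 570 CPM (EIF3E), a 6.22-fold range with a median of 181 CPM. Illumina levels ran from 5.29 TPM (EIF3C) to 579 TPM (EIF3K), a 109-fold range, or 16.1-fold without EIF3C. In Illumina CPM, not divided by length, the range was 56.9-fold, or 4.93-fold without EIF3C, which is narrower than the Nanopore range. By Nanopore EIF3E, at 230 counts and 570 CPM (501 to 649), stood above its neighbour EIF3H at 360 CPM (306 to 423). The other 12 of the 13 neighbouring pairs in the Nanopore order, EIF3CL included, had overlapping intervals, so their order is not resolved at this depth. In the Illumina order by canonical length none of the 13 neighbouring pairs overlapped, with EIF3K, EIF3I (487 TPM) and EIF3E (433 TPM) at the top. These intervals cover counting error only, not the choice of length. With union exonic length the log2 ratio per length was 3.78 for EIF3E and 0.99 for EIF3I, against 0.40 and −0.94 with canonical length. The Illumina order therefore holds for the canonical transcripts only.

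EIF3K, which encodes a small peripheral subunit, went the other way from EIF3C. It had 41 Nanopore counts, 102 CPM (74.96 to 138), and 55265 Illumina counts, 288 CPM (286 to 291). Its log2 ratio was −1.49 on counts (exact binomial test, Benjamini-Hochberg adjusted p = 1.59e-14) and −2.50 per length (adjusted p = 1.98e-52). The gene overlaps no other gene body, and its canonical transcript of 772 bases is the shortest of the EIF3 genes. EIF3G, an RNA-binding subunit with a transcript of 1103 bases, had 40 and 28707 counts and a log2 ratio of −0.59 on counts. Per length its ratio was −1.08 (exact binomial test, Benjamini-Hochberg adjusted p = 5.64e-07), and it was −0.99 under TMM scaling and −0.23 with union exonic length, neither of them called.

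For some subunits the count ratios were near or above 0. EIF3E had 230 and 108405 counts and EIF3H 145 and 70266, with log2 ratios of 0.01 and −0.03 on counts, the latter turning to 0.06 with TMM and 0.10 with median-ratio scaling. EIF3F had 99 and 30712 counts, 246 CPM (202 to 299) against 160 CPM (158 to 162), a log2 ratio of 0.61 on counts. Per length its ratio was 2.74, and the canonical transcript used for it has 6920 bases, of which 1071 are coding. EIF3H and EIF3M (72 and 41184 counts) were called higher by Nanopore per length, at log2 ratios of 1.32 and 1.42, but were at −0.13 and −0.12 with mean transcript length. EIF3A, the largest scaffold subunit (71 and 80922 counts), and EIF3D, a subunit that can bind the cap (63 and 61560), were called higher by Illumina on counts, at −1.26 and −1.03. Per length these 2 were at 0.84 and −0.76 with no call. EIF3D missed the 2-fold threshold on counts under TMM (−0.95) and median-ratio scaling (−0.91), and passed it per length with mean transcript length (−1.42) and median-ratio scaling (−1.41). The remaining EIF3 genes, EIF3B, EIF3I, EIF3J and EIF3L, lay between −0.98 and −0.32 on counts with no call.

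The 14 tested EIF2 genes all had ratios below 0 on counts, with a median of −0.96 against −0.42 for all tested genes. Per length 7 of them were above 0 and 7 below, with a median of 0.04 against 0.48. The EIF2 count median depended on the filter. It was −0.75 with a mean of at least 20 CPM, beside −0.73 for the EIF4 genes, and −1.18 with at least 1 CPM or no filter. The eIF2 complex, which carries initiator tRNA, has the subunits alpha (EIF2S1), beta (EIF2S2) and gamma (EIF2S3). By Nanopore they were at 64.5 CPM (44.004 to 94.5), 146 CPM (113 to 189) and 104 CPM (77.1 to 141). By Illumina they were at 59.9, 150 and 183 TPM, and the Nanopore intervals of EIF2S3 overlapped those of both other subunits. EIF2S3 (42 counts by Nanopore, 78217 by Illumina) had a log2 ratio of −1.96 on counts (exact binomial test, Benjamini-Hochberg adjusted p = 1.75e-28) and −0.81 per length. The latter was called higher by Illumina with union exonic length (−1.37), mean transcript length (−2.15) and median-ratio scaling (−1.46). EIF2S1 was also called higher by Illumina on counts (26 and 30772 counts, −1.30) but was at 0.11 per length (−0.34 with union exonic and −0.92 with mean transcript length).

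EIF2S3B, the copy of EIF2S3 on chromosome 12, took 0 of 42 Nanopore counts of the pair, which allows a share of up to 8.38% (Wilson), and 1.27% of the Illumina counts (1.20 to 1.36%). A share of the size seen by Illumina was therefore not detectable by Nanopore. Of the EIF2S3B words 11.9% occur elsewhere on the chromosomes, and 10.4% of the EIF2S3 words are shared with the copy. EIF2A (40 and 21529 counts) and EIF2D (27 and 20254), factors that can deliver initiator tRNA outside the main pathway, had ratios of −0.18, the highest of the EIF2 genes, and −0.65 on counts. EIF2A was at 1.13 per length, a call that turned to −0.17 with mean transcript length.

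The 5 EIF2B genes encode the exchange factor of eIF2. Their Nanopore counts were 17 for EIF2B1, 5 for EIF2B2, 6 for EIF2B3, 16 for EIF2B4 and 10 for EIF2B5. These correspond to 12.4 to 42.2 CPM, a 3.40-fold range, and the Illumina range was 10.6 to 48.4 TPM. EIF2B3, the gamma subunit, was at 14.9 CPM (6.82 to 32.5) by Nanopore and 55.6 CPM (54.5 to 56.7; 10659 counts) by Illumina. Its log2 ratio was −1.83 on counts (exact binomial test, Benjamini-Hochberg adjusted p = 0.000338) and −1.55 per length (adjusted p = 0.00555). EIF2B5, the catalytic subunit, was called on counts (−1.42) but not per length (−0.71). No call was made for EIF2B1, EIF2B2 or EIF2B4, at −0.41, −1.18 and −0.36 on counts.

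The 4 kinases of eIF2 alpha differed widely in level. EIF2AK1, the heme-regulated kinase, had 60 Nanopore counts, 149 CPM (116 to 192), and 35882 Illumina counts. EIF2AK2, activated by double-stranded RNA, had 14 and 10051 counts, and EIF2AK4, activated by uncharged tRNA, had 8 and 11003. EIF2AK3, the kinase of the endoplasmic reticulum, had 0 and 1990. EIF2AK1 was the most abundant of the 4 in both libraries, at 65.8 TPM by Illumina against 8.14, 16.1 and 3.55 TPM for EIF2AK2, EIF2AK4 and EIF2AK3. EIF2AK3 was not called on counts (exact binomial test, Benjamini-Hochberg adjusted p = 0.0625). Its Nanopore count of 0 allows up to 9.53 CPM, against 10.4 CPM by Illumina (9.93 to 10.8), so its ratio of −3.51 is set by the pseudocount (−6.71 with 0.1 CPM and −1.62 with 5 CPM). EIF2AK2 was called higher by Nanopore per length (1.97), EIF2AK1 likewise (1.17, but −0.49 with mean transcript length), and EIF2AK4 higher by Illumina on counts (−1.49, but 0.29 per length).

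The EIF4 genes had a median log2 ratio of −0.73 on counts and −0.04 per length, and none of the 14 tested was called higher by Nanopore, beside 17.7% of all genes on counts and 28.3% per length. Per length this held for the canonical transcript without rescaling. EIF4EBP2 was called with TMM scaling (1.03) and mean transcript length (1.29), and EIF4E2 (1.49) and EIF4G2 (1.105) with union exonic length. EIF4A1, the main helicase of the cap-binding complex, was the most abundant initiation factor gene in both libraries. It had 343 Nanopore counts, 851 CPM (765 to 945.5), and 317098 Illumina counts, 1654 CPM (1648 to 1660) or 1458 TPM. Its log2 ratio was −0.96 on counts and −0.78 per length, and the exact binomial test gave a Benjamini-Hochberg adjusted p of 7.02e-42 on counts, short of 2-fold. Its paralogue EIF4A2 had 49 and 33511 counts and a ratio of −0.52. EIF4A2 took 12.5% of the pair's Nanopore counts (9.59 to 16.1%) and 9.56% of its Illumina counts (9.46 to 9.66%), and the intervals overlapped. EIF4A3, a related helicase of the exon junction complex, had 23 and 18949 counts and was at −0.78 on counts. The cofactors EIF4B (142 and 112677 counts) and EIF4H (104 and 81222) were at −0.74 and −0.71 on counts, and at 0.57 and 0.01 per length.

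EIF4G1, the scaffold that joins eIF4E, eIF4A and eIF3, had the lowest count ratio of the EIF4 genes. It had 61 Nanopore counts, 151 CPM (118 to 194), and 116324 Illumina counts, 607 CPM (603 to 610), a log2 ratio of −1.997 (exact binomial test, Benjamini-Hochberg adjusted p = 4.88e-43). With a canonical transcript of 5405 bases, its ratio per length was −0.20 with no call. EIF4G3, its paralogue (15 and 16477 counts), was also called higher by Illumina on counts (−1.19), but was at 0.81 per length. EIF4G2, a shortened relative that does not bind eIF4E, had 186 and 128494 counts and was the most abundant scaffold gene in both libraries, at 461 CPM (400 to 532) and 274 TPM.

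The cap-binding gene EIF4E had 33 Nanopore counts, 81.8 CPM (58.3 to 115), and 18231 Illumina counts, 95.1 CPM, a log2 ratio of −0.21 that was not called. EIF4E2, a cap-binding relative linked to repression, also had 33 Nanopore counts, with 23209 by Illumina. It was called higher by Illumina per length at −1.24, with a canonical transcript of 967 bases, and the ratio was 1.49, called in the other direction, with union exonic length and 0.17 with mean transcript length. EIF4EBP1, EIF4EBP2 and EIF4EBP3 encode small proteins that bind eIF4E and block its contact with eIF4G. EIF4EBP1 had 34 and 12179 counts and the highest count ratio of the EIF4 genes, 0.40, which was not called (exact binomial test, Benjamini-Hochberg adjusted p = 0.212). EIF4EBP2, with a transcript of 7491 bases, had 16 and 18654 counts and ratios of −1.27 on counts, which was called, and 0.95 per length. EIF4EBP3 had 7 and 2731 counts, and EIF4ENIF1, which carries eIF4E into the nucleus, 5 and 4419, and neither was called. By Nanopore, EIF4EBP1 (84.3 CPM, 60.3 to 118) and EIF4E lay within each other's intervals. By Illumina with canonical length, EIF4EBP1 was at 119 TPM (117 to 121) and EIF4E at 60.7 TPM (59.8 to 61.6), without overlap. In Illumina CPM, not divided by length, the order was opposite, at 63.5 CPM for EIF4EBP1 and 95.1 CPM for EIF4E. The Illumina order of the 2 genes thus depends on the scale, which the intervals do not cover.

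Among the other genes, EIF1, the factor that guards start codon choice, had 261 Nanopore counts, 647 CPM (573 to 731), and 94103 Illumina counts, 491 CPM (488 to 494). Its log2 ratio of 0.40 was the highest of this group on counts (exact binomial test, Benjamini-Hochberg adjusted p = 9.18e-05) and was 0.99 per length, under 2-fold on both scales and 1.08 per length with TMM scaling. EIF1B, whose protein is 92.0% identical, took 5.43% of the counts of the pair by Nanopore (3.32 to 8.77%) and 7.67% by Illumina (7.503 to 7.83%), which are not distinguishable at this depth. EIF1AX, which works beside EIF1, had 83 and 29988 counts and ratios of 0.39 on counts and 1.89 per length, the latter called with all 3 lengths. Of its words 48.8% occur elsewhere on the chromosomes. EIF1AD, a gene with an eIF1A-like domain, had 4 and 5031 counts and was not called.

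EIF5B, the GTPase that joins the ribosomal subunits, had the lowest count ratio among members with a count in both libraries. It had 22 Nanopore counts, 54.6 CPM (36.0 to 82.6), and 74723 Illumina counts, 390 CPM (387 to 393). The log2 ratio was −2.81 on counts (exact binomial test, Benjamini-Hochberg adjusted p = 7.23e-40) and −0.93 per length. The latter was below 2-fold with the canonical transcript of 5741 bases, and called with union exonic length (−1.28) and mean transcript length (−1.60). EIF5, the GTPase activator of eIF2, had 33 and 34521 counts and ratios of −1.13 on counts, which was called, and 0.73 per length, with −1.13 for mean transcript length. EIF6, which keeps the large ribosomal subunit from joining early, had 59 and 38687 counts and ratios of −0.46 and −0.99.

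EIF5A, whose protein carries the modified lysine hypusine and also acts in elongation, had 267 Nanopore counts, 662 CPM (587 to 746), and 196476 Illumina counts, 1025 CPM or 1256 TPM. Its ratios were −0.63 on counts and −0.92 per length, short of 2-fold on both. EIF5AL1, an intact copy on chromosome 10, had 9 and 3494 counts, which is 3.26% of the pair's Nanopore counts (1.72 to 6.08%) and 1.75% of its Illumina counts (1.69 to 1.81%). The Illumina share lay inside the Nanopore interval. Its ratio was 0.28 on counts and 1.503 per length, called with the canonical but not with the union exonic length (0.77), and 59.1% of its words occur elsewhere. EIF5A2, a paralogue with 82.5% protein identity to EIF5A, had 3 and 1262 counts and was not called.

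Repeated sequence was thus concentrated in few members. At least 90% of exonic words occurred elsewhere for 2 genes, EIF3C and EIF3CL, between 10 and 90% for 11 and under 10% for 43. The genes between EIF3CL and the rest in shared words, EIF5AL1, EIF1AX and EIF4B (37.8%), had count ratios of 0.28, 0.39 and −0.74, all within 2-fold. Per length, EIF5AL1 (1.503) and EIF1AX (1.89) were called higher by Nanopore, and EIF4B (0.57) was not called. Across 49 tested members with counts in both libraries and without EIF3C and EIF3CL, Spearman's rho between shared words and the count ratio was 0.18. With the pair it was 0.27 over 51 members. These are descriptions across genes of the same libraries.

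**Figure D3:**
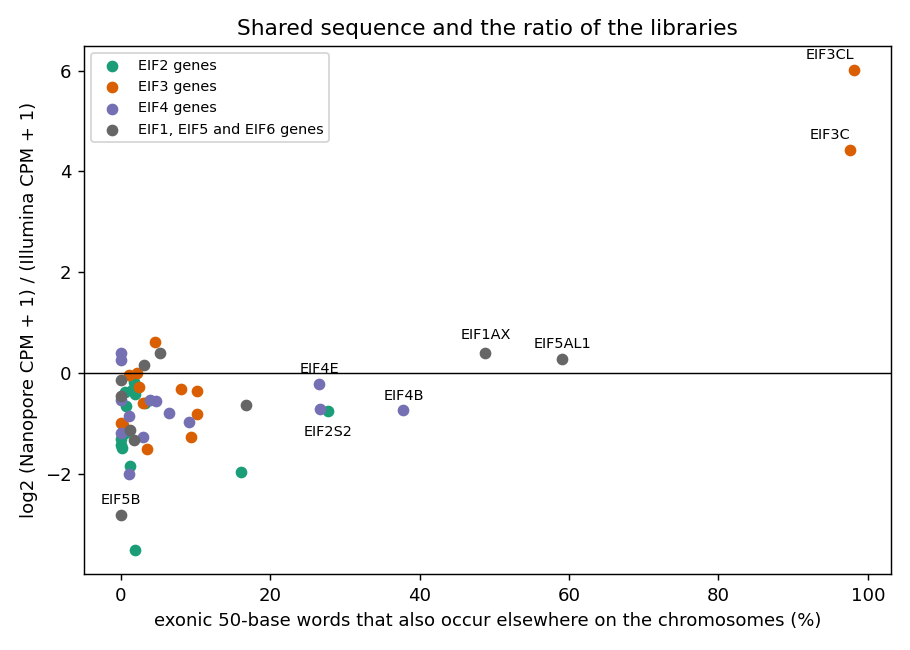
Share of exonic 50-base words that also occur elsewhere on the hg38 chromosomes (x axis, percent) and log2 Nanopore/Illumina ratio on counts (y axis) for the 52 tested members. EIF3C and EIF3CL lie at the upper right, with 97.7 and 98.1% of words shared and ratios of 4.42 and 6.01, while EIF1AX and EIF5AL1 lie near 0 on the y axis.

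The ratio of the members followed transcript length differently on the 2 scales. Across the same 49 genes, Spearman's rho with canonical length was −0.19 for the count ratio and 0.74 for the ratio per length, where length enters the ratio itself. The short transcripts of EIF3K, EIF3G and EIF6 (1069 bases) lay below 0 per length, and the long ones of EIF3F, EIF2AK2 (9975 bases) and EIF1AX (4414 bases) above it. Not all long transcripts did so, since EIF5B (5741 bases) and EIF4G1 (5405 bases) lay at −0.93 and −0.20. Level ranks were nonetheless alike. Across 50 members with a count in both libraries and without EIF3C and EIF3CL, rho between Nanopore CPM and Illumina was 0.91 in CPM and 0.83 in TPM, and with the pair it was 0.83 and 0.75 over 52. The points share 2 libraries and the Nanopore depth, so these are descriptions.

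**Figure D4:**
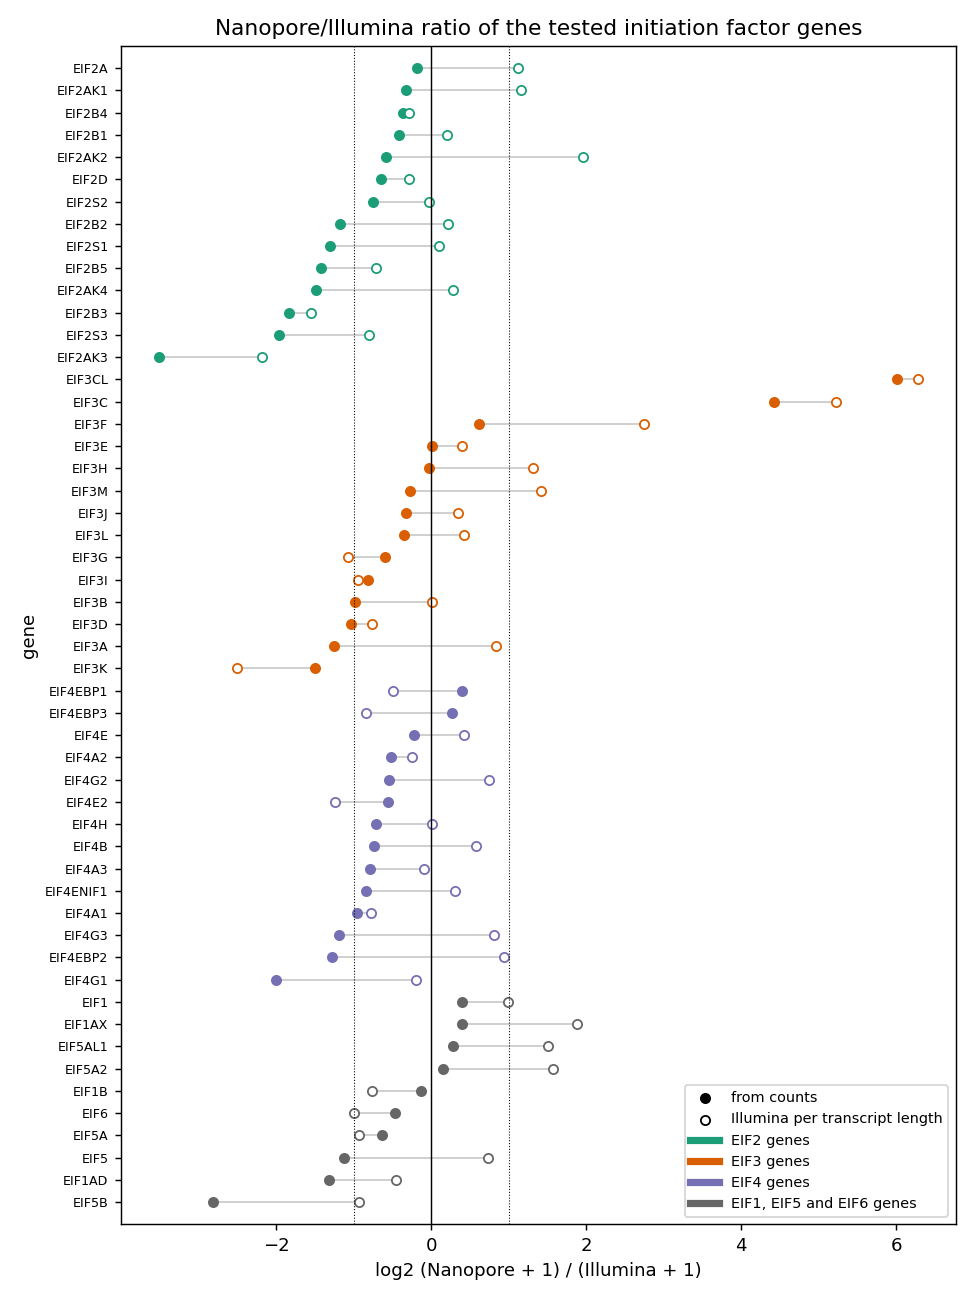
Log2 Nanopore/Illumina ratio of the 52 tested members, filled points from counts and open points with Illumina divided by canonical transcript length. Dotted lines mark 2-fold. EIF3C and EIF3CL lie above 4 on both scales and EIF3K and EIF2B3 below −1 on both, while 23 members cross 0 between the scales.

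Other genes overlap the members, and the counts of some partners differed between the libraries. Of the 56 members, 41 overlap another gene of the tables, and 34 overlap one on the opposite strand. For 6 members a partner on the opposite strand had a Nanopore count within 10% of the member's own. TNS2-AS1 had 142 Nanopore counts, as many as EIF4B, but 7492 Illumina counts against 112677. CCDC73 had 72, as many as EIF3M, but 1907 against 41184 by Illumina, and the pseudogene PLA2G10DP had 94, as many as EIF3C, but 0 by Illumina. The other 3 pairs were EIF5A with GPS2 (267 and 281 Nanopore counts), EIF4G2 with CTR9 (186 and 194) and EIF5B with TXNDC9 (22 and 20). Over the 6 pairs the partner's Illumina count was 0 to 12.5% of the member's. On the same strand, 3 members had a partner within 10% of their Nanopore count. The readthrough gene SENP3-EIF4A1 had 337 Nanopore and 297327 Illumina counts beside the 343 and 317098 of EIF4A1. A long non-coding RNA gene had 131 and 33834 counts beside the 132 and 80329 of EIF3L. Another protein-coding gene had 2 and 1150 beside the 2 and 887 of EIF4E3. Counts of these members and their partners are therefore uncertain, since a read can have been given to both. Among the 11 tested members whose body overlaps no other annotated gene, 5 were called higher by Illumina on counts (EIF2S1, EIF2S3, EIF3D, EIF3K and EIF4EBP2) and 0 higher by Nanopore. Of all 2810 tested genes without overlap, 25.3% and 5.84% were called in these directions.

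Genes of initiation outside the EIF symbols were read from a list of 32, of which 31 were tested. On counts 2 calls favoured Nanopore and 8 favoured Illumina, with a median log2 ratio of −0.65, beside −0.61 for the 52 members. These are 6.45 and 25.8% of the list, beside 17.7 and 21.7% of all genes tested. Per length 6 calls favoured Nanopore and 0 favoured Illumina (exact binomial test, Benjamini-Hochberg adjustment), with a median of 0.67 against 0.15 for the members. The 6 are 19.4% of the list, beside 28.3% of all genes, and 6.59% of all genes were called in the other direction. PABPC1, the poly(A)-binding protein that contacts eIF4G, was at 1729 CPM by Nanopore and 1657 CPM by Illumina, a ratio of 0.06. DDIT3, a stress transcription factor downstream of eIF2 alpha phosphorylation, had 23 and 1042 counts and was called higher by Nanopore on both scales (3.17 and 2.49), as was MTIF3, a mitochondrial initiation factor (52 and 5176 counts, 2.21 and 1.59). LARP1, which binds mRNAs of the translation machinery, had 22 and 87319 counts and was called higher by Illumina on counts (−3.04) but not per length (−0.84). Overlaps of the genes on this list with other genes were not examined.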

How the data were processed

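Per the file headers and values, the authors deposited whole-number counts per Ensembl gene, without normalization, 1 column per library. Per the submitters' processing notes, minimap2 2.11-r797, HISAT2 2.1.0, featureCounts and hg38 were used, with no role or order given. The annotation release, the treatment of overlapping and multiply mapped reads, and whether Illumina values count reads or fragments are not given in the sources used here, and the labels leave the end of the Nanopore column's name unexplained. If Nanopore reads were corrected with Illumina reads, the libraries are not independent. Of 58735 identifiers, 58207 are in GENCODE release 44, which gave symbols, positions and lengths. Counts were divided by the library total (CPM) or, for Illumina, by canonical transcript length (TPM), with a pseudocount of 1. With 1 library per platform no model with replicates could be fitted, so an exact conditional binomial test (double the smaller tail; scipy 1.17.1) was used where the 2 libraries averaged 5 CPM or more, adjusted over all genes so tested (Benjamini-Hochberg). It compares these libraries, not the platforms, and was tested on simulated data. Shares have 95% Wilson intervals, and amplified reads are not independent molecules, so all cover counting error only. Protein and coding identity came from global alignment of canonical transcripts (Biopython 1.88), and shared words from an exact search of both strands of chromosomes 1 to 22, X, Y and M of hg38, leaving out each gene's own body.

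Every member is named. Fuller values are given for members called on both scales, for the highest and lowest ratio of each group, for pairs with at least 80% protein identity and for core subunits. The members, lists and rules were chosen with earlier results of these data known. Alternatives were pseudocounts, filters, TMM (edgeR 4.0.16) and median-ratio scaling, other lengths, and genes without overlap. Leaving out EIF3C and EIF3CL was added after the data were seen.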

Additional observations from a re-analysis of the deposited data

How the results depend on the processing

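No paired analysis was possible because each platform has 1 library, so the groups share fewer than 2 replicate numbers. Limits are the single library per platform, the unstated counting of multiply mapped and overlapping reads, and the Nanopore depth, at which 3 counts stand for 7.44 CPM. Members with few Nanopore counts, such as EIF2B3 (6) or EIF2AK4 (8), have wide intervals. On the count scale 2 calls favoured Nanopore and 12 or 13 favoured Illumina under every pseudocount, filter and scaling tried. The share of all genes called was not computed for these alternative settings. Before the pseudocount, TMM scaling moved Nanopore levels by 0.088 (log2) and median-ratio scaling by 0.13 on counts and −0.66 per length, so rare genes moved less and EIF2AK3, at 0, not at all. The calls of EIF3C, EIF3CL, EIF2B3 and EIF3K held in every setting that tested them. Restricting the data to genes that overlap no other gene leaves 11 members and none of EIF3C, EIF3CL and EIF2B3. The EIF2 group is then EIF2S1 and EIF2S3 alone, and the EIF3 group EIF3D and EIF3K alone, so their medians describe only these genes. The count medians were −1.63 (EIF2), −1.26 (EIF3) and 0.22 (others). In this setting 0 count calls favoured Nanopore and 5 favoured Illumina. Of all 2810 genes without overlap, 5.84% and 25.3% were called in these directions. Per length there was then 1 call in each direction, beside 14.5% higher by Nanopore and 8.86% by Illumina, with medians of −1.63 (EIF3) and 1.25 (others). Without EIF3C and EIF3CL, 0 count calls favoured Nanopore. The members' share of the Nanopore counts was 0.804% without these 2 genes, 1.01% of protein-coding and 0.936% of nuclear gene counts. The Illumina share was 1.33%, 1.35% and, per canonical length, 0.884%. Per length, median-ratio scaling gave 5 calls that favoured Nanopore and 15 that favoured Illumina, with medians of −0.49 over all tested members, −0.61 (EIF2), −0.25 (EIF3), −0.69 (EIF4) and −0.48 (others). Union exonic length gave 7 calls higher by Illumina and an EIF3 median of 0.86. Mean transcript length gave 8, with medians of −0.49 over all, −0.54 (EIF2), −0.19 (EIF3) and −0.75 (others). The share of all genes called with this scaling and these lengths was not computed. A trait of the members and a shift of all genes therefore cannot be told apart from these counts of calls. Single ratios that changed sign under TMM scaling were 0.061 for EIF3H on counts and 0.056 for EIF2S2 per length. Under median-ratio scaling the count ratio was 0.10 for EIF3H, and ratios per length that changed sign were −0.33 for EIF2AK4, −0.44 for EIF2B1, −0.39 for EIF2B2, −0.54 for EIF2S1, −0.64 for EIF3B, −0.26 for EIF3E, −0.30 for EIF3J, −0.23 for EIF3L, −0.083 for EIF4B, −0.22 for EIF4E, −0.29 for EIF4ENIF1 and −0.65 for EIF4H. With union exonic length they were −0.0016 for EIF2B1, −0.22 for EIF2B2, 0.55 for EIF2B4, 0.90 for EIF2D, −0.34 for EIF2S1, 0.99 for EIF3I, −0.11 for EIF3J, 0.65 for EIF4A2, 0.29 for EIF4A3 and 1.49 for EIF4E2. With mean transcript length they were −0.17 for EIF2A, −0.49 for EIF2AK1, −0.56 for EIF2AK4, −0.52 for EIF2B1, −1.01 for EIF2B2, 0.034 for EIF2B4, −0.92 for EIF2S1, 0.33 for EIF2S2, −0.55 for EIF3B, −0.13 for EIF3H, −0.51 for EIF3J, −0.25 for EIF3L, −0.12 for EIF3M, −0.67 for EIF4B, −0.57 for EIF4E, 0.17 for EIF4E2, −0.41 for EIF4ENIF1, −0.36 for EIF4G2 and −1.13 for EIF5. Of the other single-gene values, 763 kept direction and side of the threshold, 25 came to pass it and 12 no longer did. Calls that changed along with the sign are outside these counts and outside the lists that follow. With mean transcript length, EIF2A, EIF2AK1, EIF3H, EIF3M and EIF4E2 lost their calls in this way, and EIF5 was newly called higher by Illumina. With union exonic length, EIF4E2 was called in the opposite direction. Per length the newly called were EIF1 and EIF4EBP2 with TMM scaling; EIF1B, EIF2B5, EIF2S3, EIF3D, EIF3I, EIF4A1, EIF4EBP1, EIF4EBP3, EIF5A, EIF5B and EIF6 with median-ratio scaling; EIF2S3, EIF3E, EIF4EBP1, EIF4EBP3, EIF4G2, EIF5B and EIF6 with union exonic length; EIF2S3, EIF3D, EIF4A1, EIF4EBP2 and EIF5B with mean transcript length. Calls lost per length were EIF3G with TMM scaling; EIF2A, EIF2AK1, EIF3H, EIF3M and EIF5AL1 with median-ratio scaling; EIF2A, EIF2AK1, EIF3G and EIF5AL1 with union exonic length.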
